A study of Mus musculus with 4 samples.

Results

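Heat shock proteins and their DNAJ co-chaperones were examined in livers of male and female mice. The genes were chosen by name: symbols of the Hsp and Dnaj families and the heat shock factors Hsf1 to Hsf4, without Hspa5, Hspbap1 and Hspg2. This gave 74 of the 21827 gene entries in the authors' deposited table. The pattern also takes in Hspbp1, which encodes a nucleotide exchange factor for HSP70 and not a heat shock protein. Neither Hspa1a nor Hspa14 was analysed here. The animals were CD-1 mice, an outbred stock from Charles River, untreated and 8 weeks old. RNA of 12 males and 12 females was pooled by 6 livers, which gave 2 pools per sex and 4 poly-A-enriched, strand-specific libraries. The comparison addresses which genes differ in level between male and female liver. The table gives 1 value per gene and sex, so no spread between pools could be computed here and every adjusted p is the authors' own.

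Chaperones bind unfolded or partly folded proteins and keep them from aggregating. HSP70 proteins bind and release short hydrophobic stretches in a cycle driven by ATP. DNAJ proteins deliver clients to HSP70 and trigger its ATP hydrolysis, whereas HSP110 proteins exchange the nucleotide and so release the client. HSP90 proteins act later, on nearly folded clients such as steroid receptors and kinases. Small heat shock proteins hold unfolded proteins without ATP, and the chaperonin of the mitochondrial matrix encloses them in a chamber. In the heat shock response, HSF1 binds heat shock elements and switches on a core of these genes. The liver depends on this network, since hepatocytes make and secrete most plasma proteins and fold many of them in the endoplasmic reticulum.

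Levels are log2 RPKM values, that is reads scaled by transcript length and by sequencing depth, on a log2 scale. Of the 74 members, 8 stood at the lowest value of the scale, its floor, in male and female liver alike, and 2, Hspa1l and Hspb2, had at most 2 reads, in male liver alone, and no ratio. The other 64 were compared between the sexes. A level of at least 1 in either sex, the authors' own limit for a liver-expressed gene, was reached by 55 members. A mean level of at least 8 was reached by 2 members, at least 6 by 8 members and at least 4 by 26 members. Depth was inferred from the floor at 11239946 reads in male and 14717080 in female liver, a ratio of 1.31. Read counts given below are implied by that depth and the transcript's length, and their exact 95% intervals (Clopper-Pearson) cover counting error alone and leave out any spread between mice or pools.

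**Figure D1:**
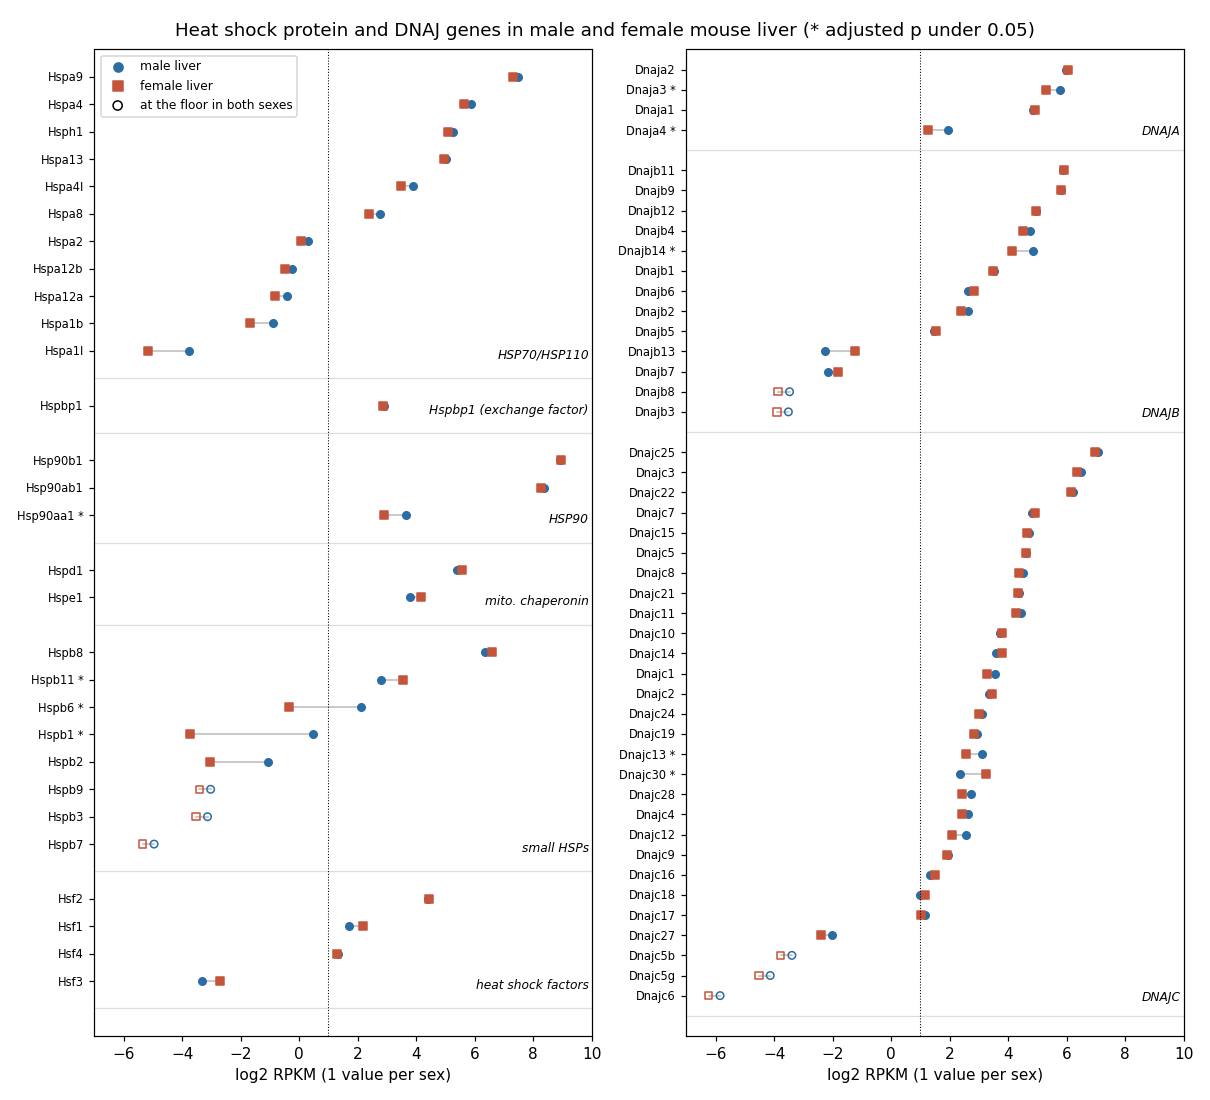
Level of each of the 74 members in male liver (blue circles) and female liver (red squares), in log2 RPKM with 1 value per sex, grouped by class and ordered by mean level. The dotted line marks a log2 RPKM of 1, open symbols the 8 members at the floor in both sexes, and stars the 9 called members. Most pairs of symbols nearly coincide, and the widest gaps are those of Hspb1 and Hspb6.

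Most of the chaperone genes had similar levels in both sexes. At an adjusted p under 0.05 in the authors' deposited table, 9 of the 64 compared members differed (14.1%), against 17.4% of all 13762 compared genes. Of the 9, 7 were higher in male liver (10.9% of the compared members, against 7.21% of all genes). The other 2, Dnajc30 and Hspb11, were higher in female liver (3.12%, against 10.2% of all genes). The share of called members was thus above that of the whole table for male-higher calls and below it for female-higher calls and for both together, with no test of either difference. Of the 9 called members, 7 differed by less than 2-fold and 5 had an adjusted p under 0.01.

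The median log2 ratio of male over female liver was -0.006 over the compared members and -0.024 over all compared genes. The median size of the ratio, without its sign, was 0.161 for the members and 0.267 for all genes on the log2 scale. Among genes with a log2 RPKM of at least 1 the same medians were 0.138 for the members and 0.198 for all genes. Within 0.5 on either side of 0 lay 52 of the 64 members (81.2%) and 71.0% of all compared genes. With the limit on level these shares became 87.3% and 83.2%. These medians and shares are descriptions, and no test of the members as a group was made.

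**Figure D2:**
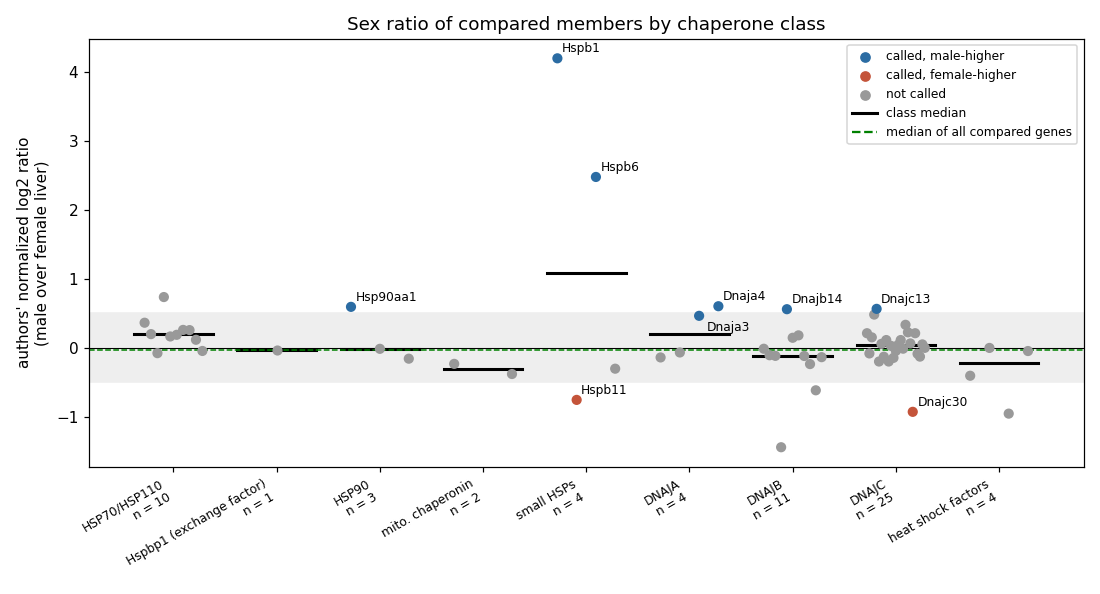
Normalized log2 ratio (male over female liver, as deposited by the authors) of the 64 compared members, by class. Each point is 1 gene, blue where called male-higher, red where called female-higher and grey where not called. Black bars are class medians, the green dashed line is the median of all compared genes and the grey band spans 0.5 on either side of 0. Hspb1 and Hspb6 stand above all other members.

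The small heat shock proteins held the widest differences. Hspb1 encodes HSP25, the mouse counterpart of human HSP27, which binds unfolded proteins and actin filaments (chromosome 5, 136363789 to 136365433, mm9). Its log2 RPKM was 0.46 in male and -3.73 in female liver, which corresponds to 13 reads and 0 reads. It was low in male liver and without implied reads in female liver. Against a floor of 3 reads over the female libraries the male level was higher by a factor of 5.67, taking the 13 reads as exact, with an adjusted p of 0.000633 in the authors' deposited table. With counting error included, the difference may be as small as 3.99-fold.

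Hspb6 encodes HSP20, a small heat shock protein known from smooth, cardiac and skeletal muscle (chromosome 7, 31337197 to 31340459, mm9). Its log2 RPKM was 2.11 in male and -0.34 in female liver, or about 65 and 15 reads. It was 5.57-fold higher in male liver (the authors' deposited table, adjusted p = 1.37e-11), and counting allows 3.20-fold to 10.7-fold. Hspb11, also called Ift25, is a component of intraflagellar transport in cilia and an atypical member of the class. Its log2 RPKM was 2.81 in male and 3.54 in female liver, from 47 and 103 reads. It was 1.69-fold higher in female liver (the authors' deposited table, adjusted p = 0.0338), and counting allows 1.17-fold to 2.42-fold.

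The most abundant small heat shock protein gene of the liver was a different one. Hspb8, whose product works with Bag3 in the removal of damaged proteins by autophagy, stood at 6.37 in male and 6.61 in female liver on the log2 RPKM scale. It was not called in the authors' deposited table (log2 ratio -0.30, adjusted p = 0.116). Hspb3, Hspb7 and Hspb9 were at the floor in either sex, and Hspb2 had 2 reads in male and 0 in female liver. The class median of 1.09 on the log2 scale rests on 4 compared genes and falls to -0.30 over the 3 with a log2 RPKM of at least 1. The alpha-crystallins are close relatives of this class. Cryab, whose start lies 404 bases from that of Hspb2 on the opposite strand, was at 1.22 in male and 1.09 in female liver and was not called (adjusted p = 1.0 in the authors' deposited table), and Cryaa lay at the floor.

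Transcripts of other tissues also differed between the male and female pools. In the authors' deposited table, 5 of 6 pancreas markers were higher in male liver (83.3%, against 7.21% of all compared genes). These were Cpa1 (31.25-fold), Pnlip (16.09-fold), Ctrb1 (9.63-fold), Cela2a (8.34-fold) and Prss2 (5.66-fold). In female liver their log2 RPKM ran from -2.96 (Cpa1) to -0.75 (Cela2a), below the limit of 1, so the folds are uncertain. The summed level of the pancreas markers was 58.6 RPKM in male and 32.5 RPKM in female liver, most of it from Cela1, which was not called. Hspb1 and Hspb6 are abundant in muscle, so skeletal muscle markers were listed too. Of 7 muscle markers, Mylpf alone was compared, and it was 11.42-fold higher in male liver (adjusted p = 0.00874 in the authors' deposited table). Its log2 RPKM was 0.24 in male and -2.47 in female liver, below the limit of 1 in both. The normalized log2 ratio of Mylpf was 3.51 and its plain difference of levels 2.71, so the fold is uncertain. Acta1, Tnni2, Myh4 and Myh1 were at the floor in either sex, and Ckm and Tnnt3 had reads in 1 sex alone. The summed level of the muscle markers was 1.8 RPKM in male and 0.671 RPKM in female liver. The part of other tissues in the Hspb1 and Hspb6 differences was not tested. In such bulk RNA, fewer cells of a type and less RNA per cell cannot be told apart.

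HSP90 genes were the most abundant members. Hsp90b1, which encodes the endoplasmic reticulum form GRP94, had a log2 RPKM of 8.91 in male and 8.96 in female liver (chromosome 10, 86152954 to 86164713, mm9). Hsp90ab1, the constitutive cytosolic form, stood at 8.36 and 8.27. Neither was called in the authors' deposited table (log2 ratios -0.16 and -0.01, adjusted p = 0.402 and 0.941). The stress-inducible cytosolic form Hsp90aa1 (chromosome 12, 111928815 to 111932912, mm9) was far lower, at 3.65 in male and 2.90 in female liver. It was 1.51-fold higher in male liver (the authors' deposited table, adjusted p = 0.0111). Its transcript length in the table is not known, so its reads lie between 59 and 462 in male and between 46 and 359 in female liver, and counting allows 1.12-fold to 2.53-fold. The transcript entry behind its level is a cDNA clone, and cytosolic HSP90 genes have processed copies in the genome, so that its level is uncertain where the counting split reads.

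HSP70 and HSP110 genes held no called member. Of their 10 compared members, 8 had a log2 ratio above 0, beside 6481 of all 13762 compared genes. The median was 0.20, with a range of -0.08 to 0.74. As plain differences of levels, 10 of 10 were above 0, with a median of 0.25, beside 0.004 over all compared genes. The median normalized ratio of all compared genes was lower, at -0.024. How many of all genes lay above 0 as plain differences was not counted. Hspa9, the HSP70 of the mitochondrial matrix also called mortalin, was the most abundant, with a log2 RPKM of 7.47 in male and 7.32 in female liver. Hspa4, an HSP110 protein and exchange factor, stood at 5.88 and 5.62, and Hsph1, the HSP110 protein induced by heat, at 5.26 and 5.08. None of these 3 was called (the authors' deposited table, adjusted p = 0.53, 0.319 and 0.782). The sign for Hsph1 depended on the measure, with -0.04 as the authors' normalized ratio and 0.18 as a plain difference of levels. The gap between both measures varied from gene to gene, so it is not a change of depth alone. Hspa9 had 0.12 and 0.15, and Hsf1 had -0.40 and -0.47. Hspb1 had 4.20 in both measures, but with 0 implied reads in female liver it says little about the gap.

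The cytosolic HSP70 genes had low values. Hspa8, the constitutive HSC70 gene, was listed at 2.75 in male and 2.38 in female liver, with a log2 ratio of 0.26 (the authors' deposited table, adjusted p = 0.395). Hspa8 has many processed copies in the genome, so its listed level is uncertain. Hspa1b, an HSP70 gene induced by heat, stood at -0.89 in male and -1.67 in female liver, from 16 and 12 reads. Its log2 ratio of 0.74 is the highest of the class, but it was not called (the authors' deposited table, adjusted p = 0.466), and counting allows a log2 ratio of -0.37 to 2.02. Its near-identical copy Hspa1a was not analysed here, so reads shared by the pair cannot be assigned. Hspa1l, in the same cluster on chromosome 17 and known from testis, had 1 read in male and 0 in female liver. Hspbp1, the exchange factor, stood at 2.90 and 2.88.

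The remaining HSP70 relatives were also not called. Hspa13, an HSP70 relative of the endoplasmic reticulum, had a log2 RPKM of 5.01 in male and 4.96 in female liver. Hspa2, known from sperm formation, stood at 0.30 and 0.07 from 34 and 38 reads. The distant relatives Hspa12a (-0.43 and -0.82) and Hspa12b (-0.24 and -0.48) were below the limit for liver-expressed genes in either sex. With 31 to 47 reads per sex in these last 3, counting allows a log2 ratio of -0.23 to 1.0 for Hspa12a and of -0.53 to 0.95 for Hspa12b.

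The paired genes of the mitochondrial chaperonin had slightly higher listed values in female liver. Hspd1 encodes the HSP60 chamber (chromosome 1, 55134679 to 55144728, mm9) and Hspe1 its HSP10 lid (chromosome 1, 55145181 to 55148151), and both start within 453 bases of each other on opposite strands. The log2 RPKM of Hspd1 was 5.39 in male and 5.55 in female liver, and that of Hspe1 was 3.80 and 4.17. Neither was called in the authors' deposited table (log2 ratios -0.23 and -0.38, adjusted p = 0.234 and 0.212). Counting allows a log2 ratio of -0.40 to 0.07 for Hspd1 and of -0.71 to -0.04 for Hspe1.

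DNAJA proteins are close to bacterial DnaJ in their domains. Dnaja2 (5.98 in male and 6.04 in female liver, log2 RPKM) and Dnaja1 (4.86 and 4.91), both cytosolic partners of HSP70, were not called (the authors' deposited table, adjusted p = 0.734 and 0.471). Dnaja3, also called Tid1, is the partner of mortalin in mitochondria (chromosome 16, 4684070 to 4707693, mm9). Its log2 RPKM was 5.78 in male and 5.29 in female liver, from 1550 and 1440 reads. It was 1.38-fold higher in male liver (the authors' deposited table, adjusted p = 0.0167), and counting allows 1.31-fold to 1.52-fold. Dnaja4 was lower in level, at 1.93 in male and 1.27 in female liver from 128 and 106 reads. It was 1.52-fold higher in male liver (the authors' deposited table, adjusted p = 0.0375), and counting allows 1.21-fold to 2.06-fold.

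Among DNAJB genes, 1 of 11 compared members was called (9.09%, against 17.4% of all compared genes). Dnajb14, an endoplasmic reticulum membrane protein with its DNAJ domain in the cytosol, stood at 4.83 in male and 4.12 in female liver, from 3029 and 2424 reads (chromosome 3, 137530639 to 137571895, mm9). It was 1.48-fold higher in male liver (the authors' deposited table, adjusted p = 0.0089). The counting interval, scaled by implied depth, was 1.55-fold to 1.73-fold and lies above the authors' normalized fold. Its paralog Dnajb12, in the same membrane, stood at 4.94 in male and 4.96 in female liver and was not called (adjusted p = 0.556 in the authors' deposited table). The difference between the paralogs in their sex ratios was not tested.

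The most abundant DNAJB genes serve the lumen of the endoplasmic reticulum. Dnajb11, which encodes ERdj3, was at 5.89 in male and 5.91 in female liver, and Dnajb9, which encodes ERdj4, at 5.80 in both. Neither was called (the authors' deposited table, adjusted p = 0.576 and 0.475). Dnajb1, the main heat-inducible cytosolic DNAJ, was at 3.51 and 3.48 from 381 and 490 reads, and its log2 ratio was -0.01 (the authors' deposited table, adjusted p = 0.948). Dnajb13 had the lowest ratio of all members (log2 ratio -1.44, adjusted p = 0.297 in the authors' deposited table). It is known from sperm and cilia, and its reads were few, at most 5 in male and 15 in female liver. Dnajb3 and Dnajb8, both known from testis, lay at the floor.

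The other cytosolic DNAJB genes spanned a range of levels without a call. Dnajb4 stood at 4.74 in male and 4.50 in female liver on the log2 RPKM scale. Dnajb6, a suppressor of aggregation, stood at 2.63 and 2.85 from 202 and 308 reads, and Dnajb2, known from neurons, at 2.63 and 2.38. Dnajb5 was lower at 1.45 and 1.53, and Dnajb7 had 2 reads in male and 5 in female liver.

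DNAJC genes form the largest class and serve many compartments. Of its 25 compared members, 2 were called, 1 in each direction (8.0%, against 17.4% of all compared genes). Of the 25 log2 ratios, 23 lay within 0.5 of 0 (92.0%, against 71.0% of all compared genes). Dnajc13, also called RME-8, acts on endosomes (chromosome 9, 104053927 to 104165260, mm9). Its log2 RPKM was 3.11 in male and 2.57 in female liver, from 779 and 698 reads. It was 1.48-fold higher in male liver (the authors' deposited table, adjusted p = 0.00502), and counting allows 1.32-fold to 1.62-fold.

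Dnajc30 was the clearest female-higher member. Its product lies in mitochondria and is known to bind the respiratory chain (chromosome 5, 135540076 to 135541235, mm9). Its log2 RPKM was 2.36 in male and 3.23 in female liver, from 95 and 228 reads. It was 1.90-fold higher in female liver (the authors' deposited table, adjusted p = 0.00121), and counting allows 1.44-fold to 2.35-fold. The gene overlaps Wbscr22 by 461 bases on the opposite strand. Wbscr22 itself was at 3.70 in male and 4.09 in female liver and was not called (log2 ratio -0.43, adjusted p = 0.0639 in the authors' deposited table). The sources used here do not say whether counting used strand, so reads of the overlap cannot be assigned to either gene.

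The abundant DNAJC genes did not pass the test. Dnajc25 had a log2 RPKM of 7.06 in male and 6.98 in female liver, Dnajc22 of 6.21 and 6.16, and Dnajc3, the lumenal co-chaperone p58IPK of the endoplasmic reticulum, of 6.50 and 6.35. Their adjusted p-values in the authors' deposited table were 0.933, 0.814 and 0.732. Dnajc12, a partner of the aromatic amino acid hydroxylases, had the highest ratio among DNAJC members that were not called (2.55 in male and 2.07 in female liver, log2 ratio 0.48, adjusted p = 0.114 in the authors' deposited table). Its reads were 38 and 35. Dnajc5b, Dnajc5g and Dnajc6, the last a neuronal auxilin, lay at the floor.

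The remaining DNAJC genes described here were not called either, in any compartment. In the endoplasmic reticulum, Dnajc10, a disulfide reductase also called ERdj5, stood at 3.71 in male and 3.80 in female liver, and Dnajc1, a membrane protein that binds ribosomes, at 3.55 and 3.26. In mitochondria, Dnajc15 stood at 4.70 and 4.64, Dnajc11 at 4.43 and 4.26 and Dnajc19, a part of the protein import motor, at 2.92 and 2.83. At other sites, Dnajc5, the cysteine string protein of secretory vesicles, stood at 4.60 in either sex, Dnajc7 at 4.81 and 4.91, and the spliceosome-associated Dnajc8 at 4.50 and 4.35. Dnajc2, which acts at the ribosome, stood at 3.33 and 3.45, and Dnajc24, needed for diphthamide synthesis, at 3.10 and 2.99. Dnajc14 was at 3.58 and 3.78, and Dnajc28 at 2.74 and 2.43.

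No heat shock factor was called. The log2 RPKM of Hsf1, the main regulator of the heat shock response, was 1.70 in male and 2.18 in female liver. Its log2 ratio was -0.40 (the authors' deposited table, adjusted p = 0.261), and counting allows -1.36 to 0.32. Hsf2, at 4.41 and 4.43, was higher than Hsf1 in level per length and had a log2 ratio of 0.0 (the authors' deposited table, adjusted p = 0.992). Hsf4, known from the lens, stood at 1.33 and 1.30. Hsf3 was close to the floor at -3.34 and -2.72, with at most 2 reads in male and 5 in female liver.

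**Figure D3:**
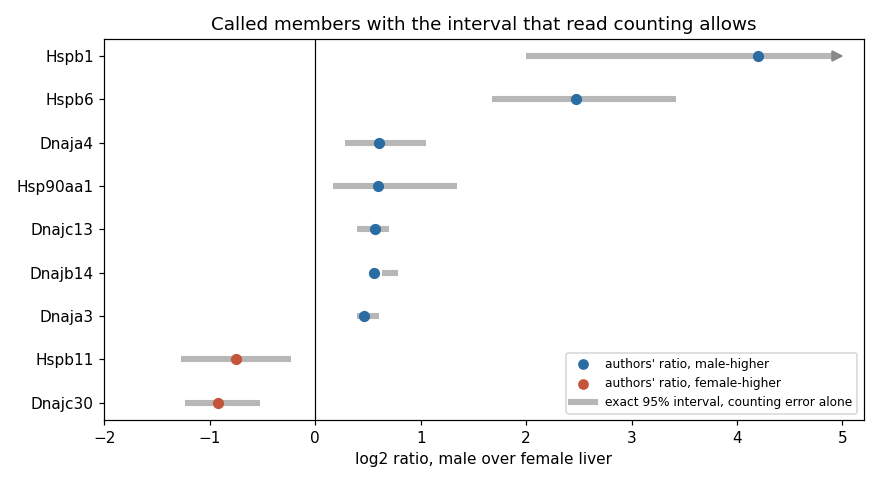
The 9 called members with the authors' normalized log2 ratio (points, blue male-higher, red female-higher) and the exact 95% interval that read counting alone allows (grey bars, scaled by implied depth). The bar of Hspb1 has no upper end because female liver had 0 implied reads. None of the 9 bars reaches 0, and the point of Dnajb14 lies below its bar.

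The counting intervals also bear on members that were not called. Of these 55, the interval lay wholly above 0 for 9 and wholly below 0 for 4, and held 0 for 42. Hspa4l, an HSP110 protein, is an example: it stood at 3.90 in male and 3.47 in female liver, and counting allowed a log2 ratio of 0.32 to 0.53, while its adjusted p was 0.239 in the authors' deposited table. For Hspb8 counting allowed -0.33 to -0.15. The intervals hold no spread between pools, and their scale is the implied depth. The authors' normalized ratio and the plain difference did not differ by a constant, so depth alone does not link the intervals to that ratio. For Hspa4l the authors' log2 ratio of 0.26 lay below the interval. For Hsph1 that ratio was -0.04, opposite in sign to its interval of 0.09 to 0.28. Intervals were computed for members alone, so no share of all compared genes stands beside the counts above. Whether the authors' ratios rest on the implied reads is not known.

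Lists by induction and compartment held 5 of the 9 called members. Of 10 members found of a heat-inducible core, which holds cytosolic genes and the mitochondrial Hspd1 and Hspe1, Hsp90aa1 and Hspb1 were called, both male-higher, and the core's median log2 ratio was -0.012 (20.0% called, against 17.4% of all genes). Its other 8 members, Hspa1b, Hspa8, Hsph1, Hsp90ab1, Dnajb1, Dnaja1, Hspd1 and Hspe1, did not pass the test. Of 8 mitochondrial members, Dnaja3 was male-higher and Dnajc30 female-higher (25.0% called), with a median of 0.044. Of 9 endoplasmic reticulum members, Dnajb14 alone was called (11.1%), with a median of -0.08.

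Promoters were searched for the heat shock element, since HSF1 binds it at the core genes. The search took 250 bases before each start in RefSeq promoters (GRCm38.p6), matched by symbol for 58 of the 74 members. The element was taken as GAANNTTC or TTCNNGAA, each of which is its own reverse complement, so that both strands are covered, and matches may overlap. It was present in 13 of the 58 members (22.4%), in 14.5% of all 27025 genes with a promoter, and in 12.8% of all 32851 promoters. A longer form, of 3 alternating units, was present in Hspd1, Hspe1 and Dnajb6 (5.17% of members), in 0.514% of all genes and in 0.466% of all promoters. The windows below, of 30 bases each, show the elements in capitals for members of the heat-inducible core, for called members and for Dnajb6, which holds the longer form. They are written 5′ to 3′ on the strand of the gene.
Hspe1, chr1:55088048-55088077 (+ strand): gccacggtccgTTCTAGAACCTTCCGGAAg
Hsph1, chr5:149636351-149636380 (- strand): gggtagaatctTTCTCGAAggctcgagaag
Hspa1b, chr17:34959324-34959353 (- strand): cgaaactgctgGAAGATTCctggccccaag
Dnaja1, chr4:40722333-40722362 (+ strand): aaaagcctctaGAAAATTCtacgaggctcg
Hspb6, chr7:30553170-30553199 (+ strand): aagtaattattGAAGTTTCtaaataaggaa
Dnaja4, chr9:54699458-54699487 (+ strand): ggaacctccgcGAACGTTCtgggcctatgt
Dnaja4, chr9:54699496-54699525 (+ strand): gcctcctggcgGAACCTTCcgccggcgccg
Dnajb6, chr5:29735841-29735870 (+ strand): ctcagctccgaGAATCTTCCGGAAcgctag

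The Hspe1 window lies between the 2 chaperonin genes, and the same element is counted for Hspd1 on the other strand. Hspb1, the member with the widest difference between the sexes, carries 2 elements. Its 250 bases before the start (chr5:135887669-135887918, + strand, GRCm38.p6) are shown whole, with both elements in capitals.
Hspb1: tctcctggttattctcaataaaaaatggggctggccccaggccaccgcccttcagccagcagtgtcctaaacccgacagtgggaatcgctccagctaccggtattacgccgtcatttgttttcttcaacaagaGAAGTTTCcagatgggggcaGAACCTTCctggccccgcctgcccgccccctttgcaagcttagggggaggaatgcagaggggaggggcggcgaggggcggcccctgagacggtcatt

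Calls were counted with and without the element, with no test of the difference. Of 12 compared members with it, 3 were called, namely Hspb1, Hspb6 and Dnaja4, and of 38 compared members without it, 4 were called, beside 17.4% of all compared genes. The called members Hsp90aa1 and Dnajc30 had no matched promoter and are in neither group, and the same holds for the core genes Hsp90ab1 and Hspa8. Dnajb1, also of the core, was searched and had no match. The median log2 ratio was 0.069 with the element and 0.0 without. A match is a description of these letters and shows no binding.

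Calls among other folding genes were counted per list, beside 17.4% of all compared genes. Of 25 cochaperones of HSP90 and HSP70, 2 were called in the authors' deposited table (8.0%), and the median log2 ratio was -0.003. Fkbp5, an HSP90-bound immunophilin that restrains steroid receptors and is induced by glucocorticoids, was 2.06-fold higher in female liver (3.60 in male and 4.58 in female liver, adjusted p = 2.65e-07 in the authors' deposited table). Aarsd1 was 1.44-fold higher in male liver (5.84 and 5.27, adjusted p = 0.0292 in the authors' deposited table). The HSP90 partners Stip1 and Cdc37 and the HSP70 partners Bag3 and Stub1 were not called.

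The cytosolic chaperonin TRiC folds actin and tubulin, which prefoldin brings to it. Of 7 TRiC subunits found, Cct6a was called (14.3%, against 17.4% of all compared genes). It was 1.33-fold higher in male liver (adjusted p = 0.0402 in the authors' deposited table), and the median log2 ratio of the subunits was 0.019. Of 5 prefoldin subunits, Vbp1 was called (20.0%). It was 1.41-fold higher in female liver (adjusted p = 0.035 in the authors' deposited table), and the median of the subunits was -0.134. Of 11 partner chaperones of mitochondria and the endoplasmic reticulum, Clpx, an unfoldase of the mitochondrial matrix, was called (9.09%). It was 1.32-fold higher in female liver (adjusted p = 0.0362 in the authors' deposited table). Trap1, the mitochondrial HSP90, and Hyou1, an exchange factor of the endoplasmic reticulum, were not called. Cirbp and Rbm3, RNA-binding proteins that rise in the cold, were not called either, with log2 ratios of -0.20 and -0.31 in the authors' deposited table.

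**Figure D4:**
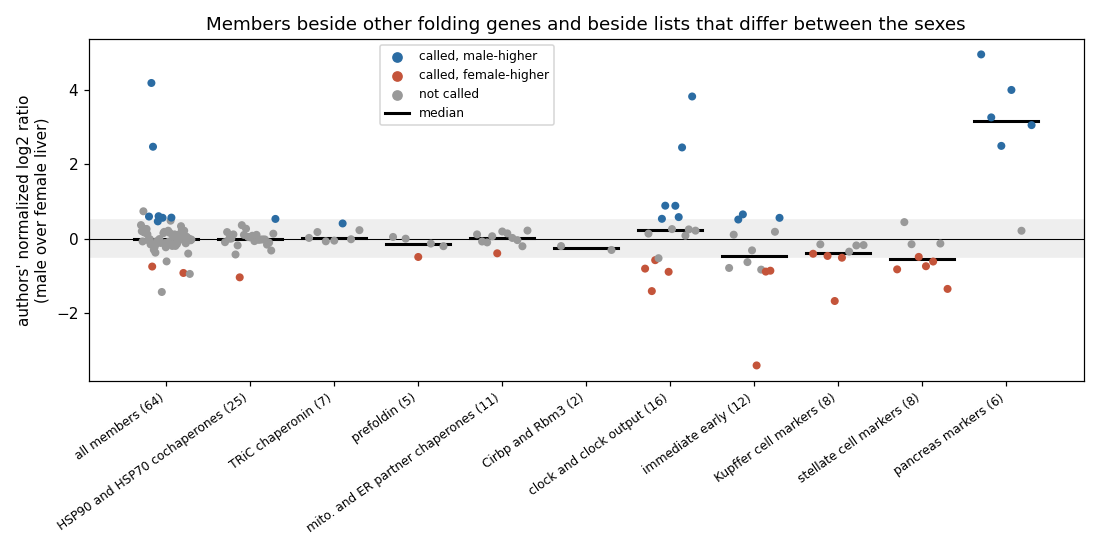
Normalized log2 ratio (male over female liver, as deposited by the authors) of the 64 compared members and for the compared genes of 10 lists (numbers of genes in brackets), with medians as black bars and a grey band of 0.5 on either side of 0. Blue points were called male-higher, red points female-higher and grey points were not called. Folding genes cluster around 0, whereas clock genes and pancreas markers spread further.

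Other lists held called genes in either direction, beside 17.4% of all compared genes. Of 16 clock and clock output genes, 6 were male-higher and 4 female-higher in the authors' deposited table, with a summed level of 237 RPKM in male and 188 RPKM in female liver. Dbp, an output gene of the clock, was 5.49-fold higher in male liver (adjusted p = 2.68e-26 in the authors' deposited table), and Arntl, the clock activator, 1.75-fold higher in female liver (adjusted p = 0.000182). Of 12 compared immediate early genes, which respond to stress and handling, 3 were male-higher and 3 female-higher. Several chaperone genes are known to follow the time of day and stress, and the part of either in the differences above was not tested.

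Hepatocyte markers were abundant in both sexes, with Alb at 14.83 in male and 15.52 in female liver (log2 RPKM). Of 9 compared, 2 were called (22.2%, against 17.4% of all compared genes). Alb was 1.62-fold higher in female liver and Apoa1 1.49-fold higher in male liver (the authors' deposited table, adjusted p = 0.000181 and 0.00214). The summed level was 57300 RPKM in male and 75400 RPKM in female liver. Of 8 stellate cell markers 5 were female-higher (62.5%), and of 8 Kupffer cell markers 4, against 10.2% of all compared genes. Their summed levels were 162 and 152 RPKM in male against 217 and 191 RPKM in female liver. Of 8 sinusoidal endothelial markers 1 was female-higher (12.5%), which is near the 10.2% of all compared genes. Of 6 cholangiocyte markers and of 7 lymphocyte markers, 1 in each list was male-higher and 1 female-higher (33.3% and 28.6% called, against 17.4% of all compared genes). Of 6 compared neutrophil and erythroid markers, Alas2 alone was called, as male-higher (16.7%). The part of these cells in the chaperone differences was not tested.

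Neighbouring genes were listed for members whose entries lay within 1000 bases of another entry, which held for 34 members. Of their 39 neighbours outside the family, 1 was called, Gm20481 beside Hspa1l. Among all compared genes 17.4% were called. The 2 shares are not alike, since some of the 39 were at the floor or, as BC048594, had reads in 1 sex and could not be called. Of the 9 called members, 5 had a neighbour within 1000 bases. BC053749, which overlaps Hspb6 by 95 bases on the opposite strand, had a log2 ratio of -0.83 (adjusted p = 0.124 in the authors' deposited table), opposite in sign to the 2.48 of Hspb6. Lrrc42, whose start lies 401 bases from that of Hspb11, had a ratio of -0.04 (adjusted p = 0.89). Wdr61, which overlaps the end of Dnaja4, had a ratio of -0.25 (adjusted p = 0.229), and H2afz beside Dnajb14 one of 0.05 (adjusted p = 1.0).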

How the data were processed

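Poly-A-enriched liver RNA of 4 pools (2 per sex) was sequenced from strand-specific libraries, per the labels. Bowtie, edgeR and mm9 are named in the submitters' processing notes, without roles or versions. The deposited table gives the authors' log2 RPKM per sex, their normalized log2 ratio, linear ratio, signed fold as a score, and adjusted p-value, per the file headers. The sources used here do not say how reads were assigned to genes. No column holds counts per library, so the count test in the design had no input, and its stated substitute served instead: genes with an authors' adjusted p under 0.05 are the called ones. Genes at the floor in both sexes, whose levels differ by 0.389 (log2), are listed with an adjusted p of 0.026 that was not used. Some genes with reads in only 1 sex, at whole steps above the floor (within 0.3%), have their ratio set to 1 and were not called; others, such as Hspb1, carry a ratio and were compared.

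Reads were implied by taking the floor as 1 added read, with lengths by RefSeq accession from GENCODE vM21 (another build, names and lengths alone). A single length was found for 56 members (75.7%). For members listed under a cDNA clone, reads are a range over protein-coding transcripts, and the widest interval is given. The recovery of depth and reads was run on simulated data made with the same lengths and the same added read. It thus checks the arithmetic alone and cannot show whether the authors counted over other lengths. Python 3.11.15, pandas 2.3.3 and scipy 1.17.1 were used. Members and 20 gene lists were chosen with earlier results of these data known. Genes named were called members, the 2 most abundant per class, the heat-inducible core, heat shock factors, members with reads in 1 sex and up to 4 called genes per folding list; others are named as examples, chosen after their values were seen. No adjustment over the list alone was possible without unadjusted p-values. What spread the authors' p-values rest on cannot be read from the table. Coordinates are those of the table (mm9, 1-based), except promoters (GRCm38.p6, RefSeq).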

Additional observations from a re-analysis of the deposited data

How the results depend on the processing

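The number of members called higher in male liver was 7, 4 at an adjusted p under 0.01 (Hspb1, Hspb6, Dnajb14 and Dnajc13), and 4 at a difference of at least 1.5-fold (Hspb1, Hspb6, Hsp90aa1 and Dnaja4). It was 7 at an adjusted p under 0.1 and 6 with a log2 RPKM of at least 1. The number called higher in female liver was 2, 1 at an adjusted p under 0.01, and 2 under each of the other limits. The median log2 ratio of the members was -0.006, and 0.056 as a plain difference of levels. It was -0.012 with a log2 RPKM of at least 1, and -0.002 when centred on all such genes. The setting without Hspa1b and Hspa1l gave -0.011, and it removed Hspa1b alone, since Hspa1l had no ratio. With Hspb1 at its bound, a setting chosen after seeing the data, the median was -0.006. Of 18 other settings for class medians, 1 moved the value by more than 0.243 on the log2 scale, the small heat shock protein median. That limit is the median counting half-width of single members and not the error of a class median. As a plain difference, 4 of 22 named members that were not called moved by more than their own counting error (Hsph1, Hsp90b1, Dnajb9 and Dnajc3). The 9 called members kept their sign, and Dnajb14 moved by more than its counting error, from 0.56 to 0.71. For Hspb1, with 0 implied reads in female liver, both measures hold the same value, so its sign could not change. The sign differed between the normalized ratio and the plain difference for 9 compared members, 0 of them called. Leaving out each pool was not run, and no spread between pools is known, because the values are given per sex. No paired analysis was possible because the columns carry no values per pool and the numbers only name the pools. The median half-width of the counting interval was 0.243 on the log2 scale, which is the precision that depth gives a typical member.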
